A study of Mus musculus with 64 samples.

Results

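Interferon-stimulated genes (ISGs) are the antiviral and immune-signaling genes that a cell switches on when it senses an interferon or foreign nucleic acid. The 35 described here are well-known members of that program listed by name, and all 35 were found by symbol among the 39017 genes of the count table. They were measured by RNA sequencing in 8 mouse pancreatic tumor cell lines, each grown alone (mono-culture) and together with fibroblasts (coculture). The filter on low counts left 33 of the 35. Cmpk2, a nucleotide kinase that neighbors Rsad2, and Zbp1, a sensor of left-handed nucleic acid, were left out, with means under 1 CPM (a count scaled to the size of its library) in all 16 groups.

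The lines had a C57BL/6 mixed strain background, and their tumor cells carried green fluorescent protein (GFP). Besides the line KPC1 there were 7 clones, which the study describes as subcloned from a single tumor of a KPC mouse. KPC mice carry mutant Trp53 and a Cre recombinase that acts in the pancreas under the Pdx1 promoter. Clones E, H and V form metabolic group 1 of the study, the other 4 (K, M, N, T) form group 2, and KPC1 is in neither. For every line and culture 4 libraries were sequenced, 64 in all, and the coculture libraries came from tumor cells separated by their GFP after 48 h beside fibroblasts. The labels name no added agent, do not say whether mono-cultured cells were sorted, and do not say whether the 4 libraries came from separate cultures, so p-values measure the spread between libraries, which may be technical. Each clone stands for 1 line, so a difference between lines describes these lines. The 7 clones share a tumor of origin, so tests that take lines or clones as replicates do not sample independent tumors.

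Interferons bind receptors at the cell surface (Ifnar1 with Ifnar2 for type I, Ifngr1 with Ifngr2 for type II) and activate Janus kinases. Type I signals assemble the factor ISGF3, which holds Stat2 and Irf9 and binds interferon-stimulated response elements in ISG promoters, and Irf7 then amplifies interferon production. The products detect viral RNA (Ddx58, also called RIG-I, Ifih1 or MDA5, and Dhx58), degrade it or block its translation (the OAS and IFIT families, Eif2ak2, Isg20), modify proteins (Isg15, Herc6), restrain the signal (Usp18) or hold virus particles at the membrane (Bst2). In tumors, ISGs are known both as a mark of exposure to interferon and as a state that some cancer cells keep without added interferon.

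The response element was searched in RefSeq promoter sequences on GRCm38.p6, which run from 250 bases before to 50 bases after each transcription start. Entries were matched for 27 of the 35 members, and not for Rtp4, Oas2, Parp14, Dhx58, Zbp1, Mx1, Mx2 and Usp18. The core, GAAA and GAAA with any 2 bases (NN) between them, read on both strands, was present in 13 of the 27 members (48.1%) and in 1079 of all 27025 genes (3.99%). These are matches of letters and do not show binding. The upstream windows below were chosen among members with a match, as examples of patterns described later. Isg15, Ifit1 and Bst2 rose in every line and Ifit3 in 7. Stat2 and Oas3 rose in clone H and fell in clone E. Oasl2 and Ifi44 also rose in every line and had no match to the core. All windows are written on the strand of the gene, with matches to the core or its reverse complement in capitals.
Isg15, chr4:156200855-156200916, minus strand: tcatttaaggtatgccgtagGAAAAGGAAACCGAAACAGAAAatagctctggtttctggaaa
Ifit1, chr19:34640765-34640833, plus strand: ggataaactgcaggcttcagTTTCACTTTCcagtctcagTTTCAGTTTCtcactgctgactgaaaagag
Ifit3, chr19:34583353-34583436, plus strand: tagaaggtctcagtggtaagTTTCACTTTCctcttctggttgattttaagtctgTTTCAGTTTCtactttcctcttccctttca
Bst2, chr8:71537567-71537622, minus strand: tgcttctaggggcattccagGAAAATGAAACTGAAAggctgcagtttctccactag
Stat2, chr10:128270256-128270305, plus strand: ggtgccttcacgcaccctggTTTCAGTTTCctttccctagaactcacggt
Oas3, chr5:120777705-120777754, minus strand: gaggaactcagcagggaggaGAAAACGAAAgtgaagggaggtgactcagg
The Isg15 window held 3 overlapping matches, the first 78 and the last 66 bases before the RefSeq start, and the Ifit1 window held 2, at 104 and 85 bases. Ifit3 had matches 156 and 122 bases before its start, and Bst2 had overlapping ones at 130 and 124 bases. Stat2 had 1 match, 222 bases before its start, and Oas3 had 1 at 75 bases. The bases after the RefSeq start lay in an annotated transcript of the gene for 20 of the 27 matched members. They did not for Ifit3, Bst2 and Stat2, whose distances are less certain.

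Library totals lay between 11178721 and 21333683 counts. The keratins Krt8, Krt18 and Krt19 were high in every group, while the epithelial markers Epcam and Cldn4 stayed under 1 CPM. Of 8 epithelial markers tested in the pooled coculture test, Sox9 rose (0.27 ± 0.09, adjusted p = 0.026) and Krt19 (-0.70 ± 0.12, adjusted p = 0.0024), Elf3 (-0.76 ± 0.22, adjusted p = 0.018) and Krt8 (-0.51 ± 0.22, adjusted p = 0.081) fell. Of 8 hematopoietic markers, 1 to 3 were at 0 counts in each group and Cd3e in all of them. The 2 that could be tested moved in opposite directions in the pooled test, with Cd68, also made by other cells, higher (1.37 ± 0.35, adjusted p = 0.011) and Cd14 lower (-0.56 ± 0.16, adjusted p = 0.019). Of 20 fibroblast markers, 5 to 7 had 0 counts in a mono-culture group and 1 or 2 in a coculture group. Their sum was large in both, with group means of 4184 to 8588 CPM alone and 5374 to 9692 CPM in coculture, most of it Vim, which tumor cells also make. Dcn, Postn, Fap and Thy1, which were near 0 alone, summed to at most 0.201 CPM in a mono-culture library and to between 14.6 and 155 CPM in the coculture libraries. These 4 were chosen from the 20 for being at or under 1 CPM alone in these same data. Their move with the culture in every line follows in part from that choice. The part of any of these markers in the results below was not tested. In bulk RNA, fewer cells of a type and less RNA per cell cannot be told apart.

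In mono-culture the members covered a wide range. In RPKM, a level scaled for library size and gene length, Lgals3bp, a secreted galectin-binding glycoprotein, was highest with a mean over the 8 lines of 90.1 RPKM, followed by Bst2 with 28.6 and Trim25, a ubiquitin ligase that acts with RIG-I, with 20.5 RPKM. Among the transcription factors, Stat2 averaged 8.63 RPKM, Irf9 4 and Irf7 0.256. Several classical effectors were far lower, with Isg15 at 0.701, Ifit1 at 0.222, Usp18 at 0.0337 and Sp100, a nuclear body protein, at 0.00277 RPKM. At or above 1 CPM in every line were 16 members, and 7 were under 1 CPM in all 8.

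**Figure D1:**
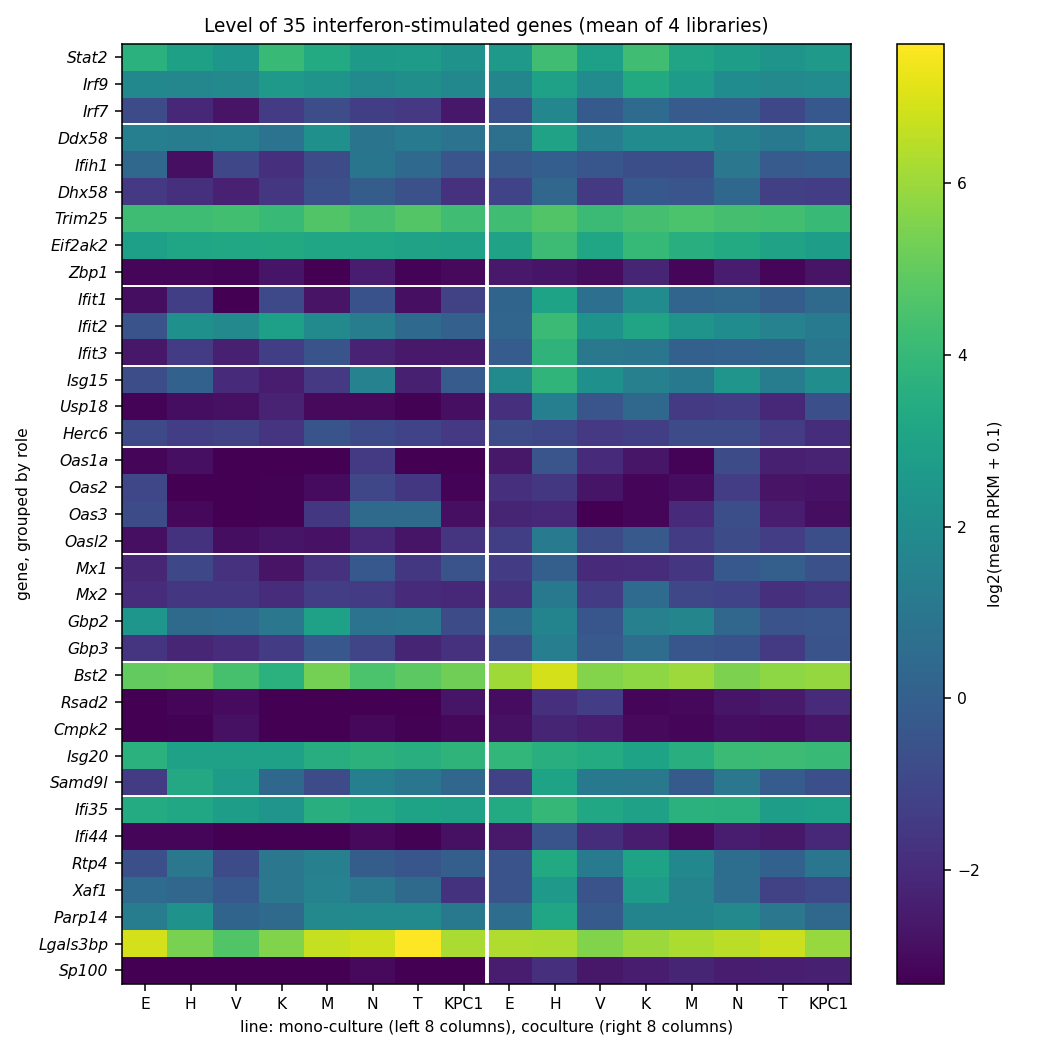
Mean level of each of the 35 members (rows, grouped by role) in the 8 lines in mono-culture and in coculture (columns), as log2 of the mean RPKM of 4 libraries plus 0.1. Lgals3bp, Bst2 and Trim25 were the highest 3 members in mono-culture. In clone H 24 of the 35 members had their highest coculture mean, a count given without the share over all genes.

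The lines differed in which members they expressed when grown alone. Against the mean of the other 7 lines, clone M had 20 members higher and 1 lower, and clone N had 18 higher and 3 lower, while clone V had 3 higher and 16 lower. These calls, and those by line below, used edgeR's quasi-likelihood test with Benjamini-Hochberg adjustment at an adjusted p under 0.1. Where a value ± SE stands with an adjusted p, it is a log2 difference or log2 fold change of that test. Among all 14134 genes tested, 33.8% were higher and 28.9% lower in M, 32% and 26% in N, and 31.6% and 27.3% in V. The other lines were mixed, with 9 higher and 7 lower in E (27.8% and 23.8% of all genes), 12 and 7 in H (27.6% and 23.7%), 9 and 12 in K (33.6% and 31.7%), 7 and 4 in T (26.2% and 20.9%), and 9 and 9 in KPC1 (34.9% and 31%). The 19 members called in H became 12, of which 9 were higher and 3 lower, without replicate 2 of every line and culture.

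Among the sensors, Ifih1 differed widely. In clone H its mono-culture libraries gave 0.503, 0, 0.216 and 0.55 CPM, and in clone N they gave 16.2, 21.2, 10.4 and 11.7 CPM. Every H library was below every N library. Against the other lines the log2 difference was -4.10 ± 0.38 (adjusted p = 8.9e-14) in H and 2.13 ± 0.20 (adjusted p = 1.4e-13) in N. Ddx58 varied less, from a mean of 12.5 CPM in N to 32.9 CPM in M. Dhx58, which tunes both sensors, was lowest in V at 0.324 ± 0.0783 CPM (SD, n = 4, as for all means below) and highest in N at 2.62 ± 1.15 CPM.

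The OAS family, most of whose members make the messenger that activates RNase L, divided the lines further. Oas3 was 9.7, 9.34, 10.3 and 9.25 CPM in the mono-culture libraries of clone T and 0, 0.0512, 0 and 0 CPM in those of V. Clones T, N and E were higher than the other lines, by 4.49 ± 0.31, 4.45 ± 0.32 and 2.91 ± 0.36 on the log2 scale (adjusted p = 3.9e-18, 9.1e-18 and 1e-09). M was higher too (1.81 ± 0.40, adjusted p = 0.00012), but lower, without passing the test, by limma on log2(RPKM + 1) (-0.11, adjusted p = 0.28). Oas2 was likewise higher in T, N and E, with means of 1.88 CPM in E, 1.83 in N and 1.21 in T, against at most 0.107 CPM in any other line. Oas1a was highest in N, at 0.486 ± 0.252 CPM.

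Samd9l, which restrains virus replication and cell growth, set clones of group 1 apart from each other. Its mono-culture libraries held 51.9, 45.5, 48.8 and 79 CPM in H and 31.8, 43.9, 21 and 46.3 CPM in V, but 1.57, 1.27, 1.4 and 2.11 CPM in E. The log2 differences from the other lines were 2.96 ± 0.19 for H, 2.21 ± 0.20 for V and -2.92 ± 0.34 for E (adjusted p = 2.4e-19, 8.7e-14 and 1.9e-10). The E libraries lay below all those of H and V. Samd9l was also low in M, at 2.69 ± 0.828 CPM (-2.05 ± 0.31, adjusted p = 1.2e-07).

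Other members differed between lines as well. Ifit2, which slows translation, was highest in K with 30.4 ± 5.55 CPM (1.96 ± 0.16, adjusted p = 3.6e-16) and lowest in E with 2.4 ± 0.573 CPM. Its relative Ifit1 had 0 counts in all 4 libraries of V. In K it was 1.24 ± 0.423 CPM and higher than in the other lines (2.59 ± 0.46, adjusted p = 2.9e-06). The highest Ifit1 mean was that of N, at 1.54 CPM. Lgals3bp ranged from 73.7 ± 6.49 CPM in V to 595 ± 47.5 CPM in T.

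Gbp2, a guanylate-binding GTPase known for its answer to interferon gamma, was 20.2 ± 4.47 CPM in M and 14 ± 2.99 CPM in E, against 1.19 ± 0.321 CPM in KPC1 (-2.40 ± 0.43, adjusted p = 3.6e-06). KPC1 had the highest means of Rsad2 (viperin), 0.263 ± 0.14 CPM, and of Ifi44, a cytoplasmic protein of uncertain function, 0.27 ± 0.129 CPM. Its Xaf1, a partner of an apoptosis inhibitor, had the lowest mean of the 8 lines at 1.05 ± 0.609 CPM (-2.83 ± 0.36, adjusted p = 1.7e-09).

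Some mono-culture differences rest on few reads. Ifit3 was higher in M (2.35 ± 0.57, adjusted p = 0.00036) at 1.08 ± 0.704 CPM. Mx1, a dynamin-like GTPase, was lower in K (-2.59 ± 0.67, adjusted p = 0.00079) at 0.19 ± 0.251 CPM. Isg15, the ubiquitin-like modifier, was 2.16 ± 0.152 CPM in N and 0.0746 ± 0.0555 CPM in T, where it was lower than in the other lines (-2.33 ± 0.69, adjusted p = 0.0053). Sp100 was detected in mono-culture in 2 N libraries and no other, at 0.167 CPM on average in N.

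Coculture asked how the tumor cells changed beside fibroblasts. Taking the 8 lines together, with the libraries of each line and culture summed so that the line is the replicate, 17 of the 31 members that passed the filter of this fit rose (54.8%) and none fell. Among all 14478 genes tested, 27.2% rose and 27.4% fell, 54.6% in all. The median log2 fold change of the 31 members was 0.57. By role, all 3 IFIT genes rose, as did Isg15 and Usp18 but not Herc6 in the ISG15 system, 3 of 4 GTPases (Gbp3, Mx2 and Mx1), and Irf7 but not Stat2 or Irf9 among the 3 transcription factors. Of 5 sensors and their partners tested, Dhx58 and Eif2ak2, the kinase PKR that stops translation on double-stranded RNA, were called.

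The called members with the smallest p-values were Oasl2, Isg15, Sp100, Bst2, Ifit3 and Usp18. Oasl2, a relative of the OAS enzymes, rose by 2.72 ± 0.31 (adjusted p = 0.00058), Isg15 by 3.22 ± 0.43 (adjusted p = 0.0012) and Bst2 by 1.16 ± 0.16 (adjusted p = 0.0014) on the log2 scale. Ifit3 rose by 3.62 ± 0.53 (adjusted p = 0.0015) and Usp18, the protease that removes Isg15 and damps the receptor, by 3.10 ± 0.51 (adjusted p = 0.0022). Sp100 was called as well (adjusted p = 0.0012), but its count was 0 in the mono-culture of 7 lines, so its fold is a lower bound there. Against a floor of 3 counts over the 4 libraries it was at least 11.3-fold higher in V and at least 31.1-fold higher in H.

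The pooled test did not call the whole list. Stat2 had a log2 fold change of 0.07 ± 0.22 (adjusted p = 0.82). Lgals3bp had one of -0.04 ± 0.21 (adjusted p = 0.88), and Xaf1 one of 0.18 ± 0.47 (adjusted p = 0.77). Oas3 and Gbp2 had negative estimates that did not pass the test, -0.77 ± 0.73 and -0.61 ± 0.39 (adjusted p = 0.41 and 0.22). Leaving out 1 line at a time gave between 13 called members, without K, and 19, without T. Without H, 14 members rose and 1 fell, and in the other 7 such fits none fell.

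Line by line, with the 4 libraries of each culture as replicates, Ifit1, Isg15, Oasl2, Bst2 and Ifi44 rose in all 8 lines. These 5 are 15.2% of the 33 members tested, and 2.02% of all genes rose in all 8. In V, Ifit1 went from 0 in every mono-culture library to 2.01, 2.84, 3.25 and 8.15 CPM, at least 92.5-fold higher against the same floor. In E its mono-culture values were 0.185, 0, 0.0537 and 0.124 CPM and its coculture values 1.91, 1.23, 3.14 and 4.51 CPM. Clone N, already at 2.25, 1.19, 1.39 and 1.35 CPM alone, reached 3, 2.31, 3.65 and 3.76 CPM, the smallest fitted rise of the 8 lines (1.04 ± 0.44, adjusted p = 0.067).

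Coculture and mono-culture libraries of Ifit1 did not overlap in any line, and the same was true of Isg15 and Bst2. No share of all genes without overlap is given for this or for any earlier or later statement of overlap. Such statements describe the named genes only. Bst2 started far higher than the other 2. Its mean went from 12.7 to 53.5 CPM in K, its largest change (2.08 ± 0.20, adjusted p = 2.4e-11), and from 39.2 to 60.1 CPM in M, its smallest (0.62 ± 0.18, adjusted p = 0.0081). Oasl2 had coculture means between 1.71 CPM in M and 13.9 CPM in H, and Ifi44 between 0.127 CPM in M and 4.02 CPM in H. For both, the cultures overlapped in KPC1 and in no other line.

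**Figure D2:**
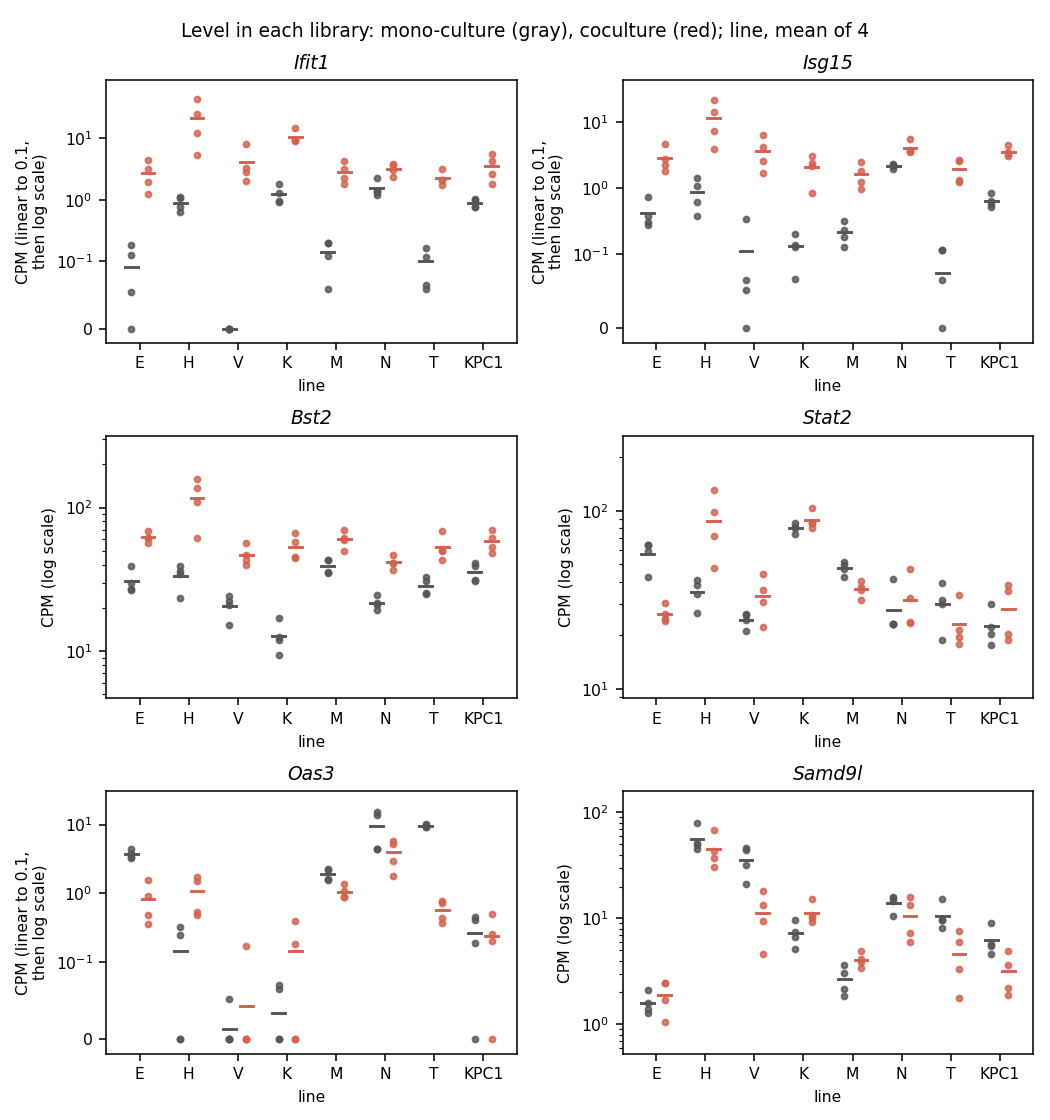
CPM of 6 members in each library, by line, with mono-culture and coculture in different colors and the mean of 4 libraries as a line; the CPM axis is logarithmic, and linear near 0 where a gene reaches 0. Ifit1, Isg15 and Bst2 were higher in coculture in all 8 lines, Stat2 rose in H and fell in E, Oas3 rose in H and fell in E, N and T, and Samd9l fell in V, T and KPC1.

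Clone H had the most members called. Of the 33 tested, 31 rose (93.9%) and none fell, where 21.4% of all genes rose and 22.6% fell (44% in either direction). The median log2 fold change of the members was 2.41. The remaining pair, Mx1 and Samd9l, had log2 fold changes of 0.98 ± 0.52 and -0.32 ± 0.30 (adjusted p = 0.14 and 0.43). Leaving out each replicate in turn, in all lines and cultures, gave 29 to 32 called members.

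All 3 transcription factors rose in H. Stat2, the subunit of ISGF3 that type I interferon uses, was 41, 26.6, 34.3 and 38.4 CPM alone and 47.6, 71.8, 98.7 and 132 CPM beside fibroblasts (1.32 ± 0.24, adjusted p = 2.2e-05). Irf9, its DNA-binding partner, rose from 19.3 ± 1.12 to 43.3 ± 14 CPM (1.16 ± 0.15, adjusted p = 2.4e-08), and Irf7 from 0.68 ± 0.159 to 13.1 ± 9 CPM (4.27 ± 0.48, adjusted p = 2e-09). None of the 3 overlapped between the cultures.

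Ifih1, nearly silent in H alone, had the smallest p-value of the clone. It reached 2.84, 7.04, 10.1 and 9.8 CPM (4.46 ± 0.41, adjusted p = 6.8e-12). That brought H from the lowest of the 8 lines to a mean of 7.44 CPM, where the other lines in coculture had between 4.02 CPM in M and 16.3 CPM in N. Ifit1 rose from 0.629, 1.08, 0.757 and 1.1 to 5.31, 12.5, 25.5 and 44.5 CPM (4.63 ± 0.45, adjusted p = 4.9e-11), and Usp18 from 0.0629, 0.25, 0.108 and 0.244 to 2.84, 4.41, 9.01 and 13.7 CPM (5.48 ± 0.55, adjusted p = 4.9e-11). In coculture, 24 of the 35 members had their highest mean in H and 4 in K. The same shares over all genes are not given, so these counts describe the list only.

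In H, as in several other lines, 1 coculture library was the highest for most members. For 28 of the 33 members the highest of the 4 H libraries was that of replicate 4, and for 31 the lowest was that of replicate 1. Replicate 4 was the highest for 28 members in V, 24 in T and 23 in K, and in KPC1 replicate 3 was the highest for 24 and replicate 2 the lowest for 26. The sums of the 4 fibroblast genes, in H coculture replicates 1 to 4, were 30.8, 65.5, 74.1 and 96.5 CPM, and their part in the spread was not tested. Without replicate 4, 29 members were called in H, and without replicate 1, 32. Of the 2 hematopoietic markers tested in H, the macrophage-associated Cd68 rose from 4.58 to 40.5 CPM, with Ptprc, which marks blood cells, at 0 and 0.03 CPM, and Cd14 fell (-1.16 ± 0.18, adjusted p = 1.7e-06). The summed level of all 8 was 71.7 to 96.9 CPM alone and 68.2 to 84.8 CPM in coculture. That of the epithelial markers was 3007 to 3297 CPM alone and 1796 to 2994 CPM in coculture. The part of either list in the H response was not tested.

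In clone K, 20 members rose (60.6%) and none fell, against 12.5% and 8.02% of all genes. The median log2 fold change was 1.65, or 1.61 with members at 0 in mono-culture set to their lower bound. Bst2 had the smallest p-value, its libraries going from 11.9, 16.9, 12.5 and 9.39 to 66.6, 44.9, 58 and 44.6 CPM. Ifit1 rose from 1.81, 1.31, 0.939 and 0.904 to 9.26, 9.6, 8.97 and 14.9 CPM (3.09 ± 0.43, adjusted p = 4.1e-07) and Usp18 from 0.372 ± 0.235 to 3.71 ± 1.18 CPM (3.29 ± 0.50, adjusted p = 1.6e-06). Neither Bst2 nor these 2 genes overlapped between the cultures.

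Xaf1 rose in K from 11.2, 12.3, 7.98 and 11.8 to 45.7, 35.6, 25.5 and 31.9 CPM (1.68 ± 0.33, adjusted p = 0.00013), and Mx2, a GTPase related to Mx1, from 0.692 ± 0.282 to 4.95 ± 0.445 CPM (2.83 ± 0.44, adjusted p = 2.6e-06). Stat2, whose mono-culture mean of 80 ± 4.34 CPM was the highest of the lines, did not pass the test in K (0.15 ± 0.23, adjusted p = 0.74). All 20 members that rose in K rose in H as well, where 5.87% of all genes rose in both. In K the fibroblast genes summed to 26.3, 32.1, 155 and 150 CPM in coculture replicates 1 to 4, and the median log2 CPM over the 33 members was 2.62, 2.41, 2.44 and 2.94. In H that median was 2.41, 3.18, 4.27 and 4.64. The part of fibroblast transcript in either was not tested.

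**Figure D3:**
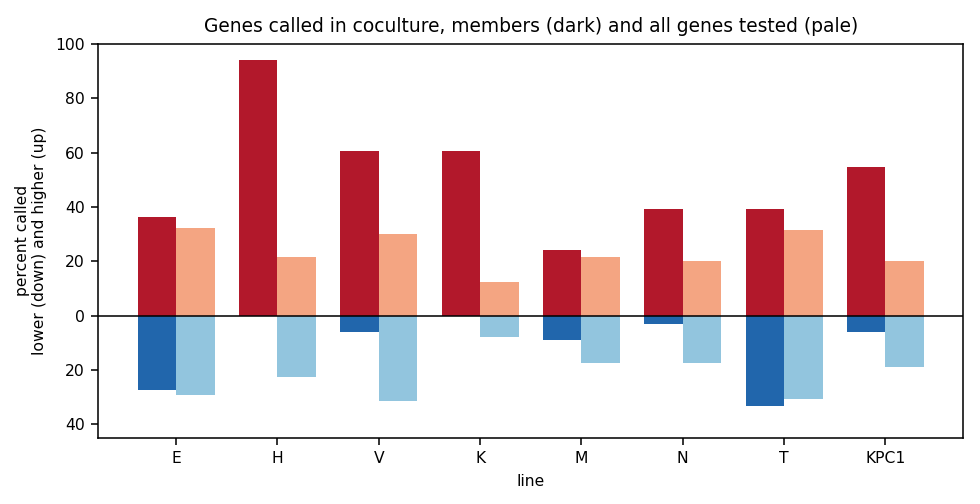
Percent of the 33 members and of all genes tested that were called higher (upward) or lower (downward) in coculture in each line at an adjusted p under 0.1. In H 93.9% of members were higher and none lower, and in K 60.6% and none. In E and T the members, like all genes tested, were called in both directions.

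In clones E and T members were called in both directions, as were all genes. In E 12 members rose (36.4%) and 9 fell (27.3%), against 32.1% and 29.2% of all genes. In T 13 rose (39.4%) and 11 fell (33.3%), against 31.5% and 30.7%. The share of members called in either direction, 63.6% in E and 72.7% in T, compared with 61.3% and 62.2% of all genes. Of the 12 members with a mean of at least 10 CPM over all libraries, 2 rose and 4 fell in E, and 3 rose and 5 fell in T.

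In E, Ifit1 rose with a log2 fold change of 4.65 ± 0.66 (adjusted p = 6.3e-08), Isg15 from 0.427 ± 0.216 to 2.86 ± 1.21 CPM (2.78 ± 0.48, adjusted p = 2.4e-06) and Bst2 from 30.6 ± 5.73 to 62.1 ± 4.75 CPM (1.02 ± 0.19, adjusted p = 6.9e-06). Gbp2 fell from 12.9, 14.4, 10.8 and 17.9 to 4.74, 4.59, 1.19 and 1.93 CPM (-2.16 ± 0.45, adjusted p = 5.9e-05), and Oas3 from 4.35, 3.8, 3.38 and 3.28 to 0.921, 1.58, 0.489 and 0.358 CPM (-2.13 ± 0.48, adjusted p = 0.00017). Stat2 also fell, from 42.6, 63.9, 64.2 and 59.3 to 24.1, 30.5, 24.6 and 26.3 CPM (-1.12 ± 0.24, adjusted p = 8.5e-05). For none of these 6 did the cultures overlap, so the same clone had Isg15 up and Stat2 down. Usp18 in E rests on 1 mono-culture count, with a ratio of 38.5 (95% counting interval 6.43 to 1567).

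In T, Isg15 rose from 0.117, 0, 0.0646 and 0.117 to 1.24, 2.61, 1.35 and 2.69 CPM (4.60 ± 0.65, adjusted p = 4.5e-08). Ifit1 rose by 4.36 ± 0.67 (adjusted p = 2.9e-07), and Bst2 by 0.89 ± 0.19 (adjusted p = 5.8e-05). Oas3 had the largest fitted fall of any member and line, to 0.782, 0.717, 0.369 and 0.436 CPM (-4.05 ± 0.49, adjusted p = 1.4e-09), below every mono-culture library. Xaf1 fell from 5.31, 6.5, 5.43 and 9.66 to 1.63, 1.17, 1.72 and 2.54 CPM (-1.93 ± 0.39, adjusted p = 3.3e-05) and Lgals3bp from 595 ± 47.5 to 325 ± 48.7 CPM (-0.87 ± 0.18, adjusted p = 3.4e-05), neither with overlap.

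The members that rose in H and fell in both E and T numbered 7: Oas2, Oas3, Ifih1, Xaf1, Parp14, Gbp2 and Lgals3bp. They are 21.2% of the 33 members, and 0.785% of all genes had this pattern. The pattern was read from these same calls. In H 93.9% of members rose, against 21.4% of all genes, so the gap between the shares follows in part from that. The share of all genes that fell in both E and T is not given. Parp14, which attaches ADP-ribose to proteins, had means of 50.5 ± 8.1 and 85.9 ± 32.7 CPM alone and in coculture in H. The means were 23.5 ± 4.11 and 13.3 ± 4.05 CPM in E, and 36.9 ± 9.74 and 19.4 ± 7.18 CPM in T. Its libraries overlapped between the cultures in H and in T but not in E. In all, 12 members rose in at least 1 line and fell in at least 1 other (36.4%, against 17.8% of all genes), and 20 rose in at least 1 line and fell in none (60.6%, against 37.7%).

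**Figure D4:**
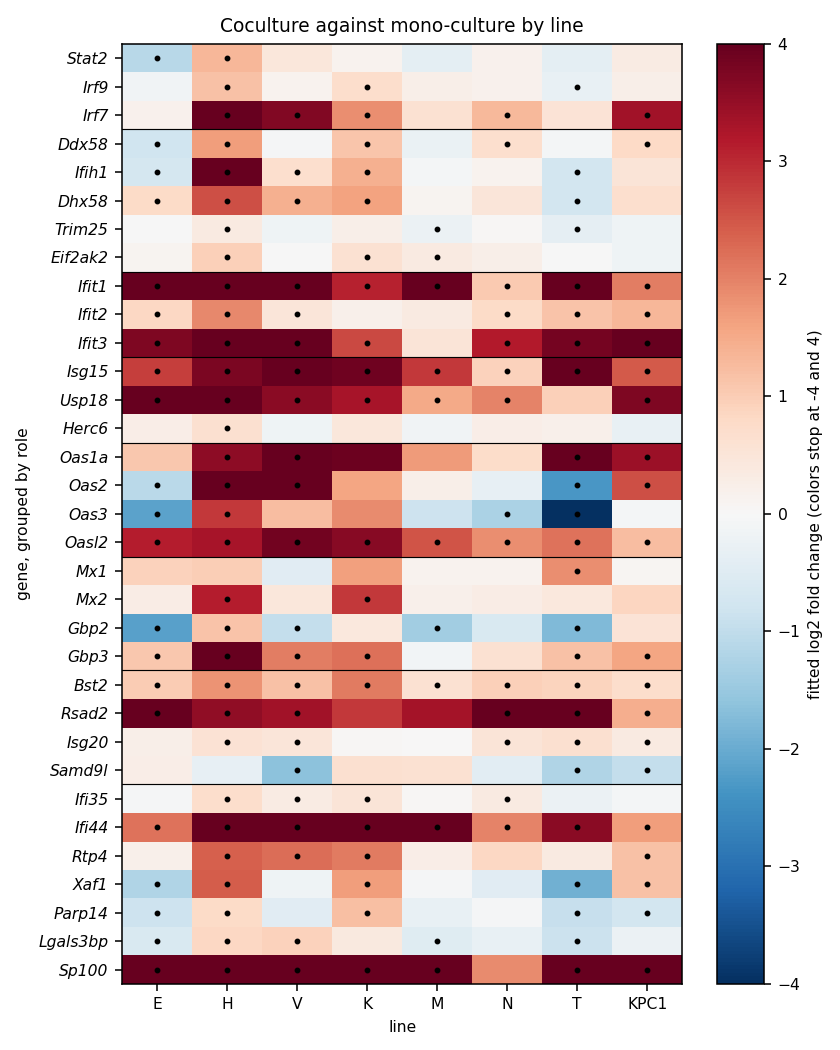
Fitted log2 fold change, coculture against mono-culture, of the 33 members tested (rows, grouped by role) in each line; dots mark an adjusted p under 0.1, and colors stop at -4 and 4. Ifit1, Isg15, Oasl2, Bst2 and Ifi44 were called higher in all 8 lines, and Oas3, Gbp2, Xaf1, Ifih1 and Parp14 change color between H and the columns of E and T; fitted values of genes at 0 in mono-culture, such as Sp100, depend on the prior count and are not bounds.

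Clone V, the third of group 1, had 20 members higher and 2 lower (30% and 31.5% of all genes, 61.5% in either direction). Isg15 rose from 0.114 ± 0.153 to 3.67 ± 2.02 CPM (5.01 ± 0.58, adjusted p = 5.3e-10) and Irf7 from 0.235 ± 0.0823 to 3.05 ± 2.3 CPM (3.71 ± 0.58, adjusted p = 4.8e-07). Samd9l fell to 13.3, 9.45, 4.64 and 18.1 CPM, without overlap (-1.65 ± 0.32, adjusted p = 1.9e-05). The fall of Gbp2 was smaller and its libraries overlapped (-0.95 ± 0.49, adjusted p = 0.096).

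KPC1 had 18 members higher and 2 lower (20.1% and 19% of all genes). The smallest p-values were those of Usp18 (3.74 ± 0.61, adjusted p = 1.1e-05), Irf7 (3.36 ± 0.56, adjusted p = 1.5e-05) and Ifit3 (4.75 ± 0.84, adjusted p = 3.2e-05). Samd9l and Parp14 fell, with log2 fold changes of -0.95 ± 0.36 and -0.72 ± 0.29 (adjusted p = 0.041 and 0.048), with overlapping libraries.

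Clones M and N, with the most members above the other lines in mono-culture, had 11 and 14 members called. In M 8 rose and 3 fell (21.6% and 17.3% of all genes, 38.9% in either direction). Ifit1 in M went from 0.0588, 0.193, 0.197 and 0.121 to 1.79, 2.26, 4.32 and 3.13 CPM (4.28 ± 0.63, adjusted p = 7.7e-07), and Isg15 rose by 2.84 ± 0.56 (adjusted p = 0.0001). Sp100 was at least 19.2-fold higher. Gbp2 fell from 20.2 ± 4.47 to 7.76 ± 3.56 CPM (-1.38 ± 0.42, adjusted p = 0.009), and Lgals3bp and Trim25 fell too, with -0.47 ± 0.18 and -0.22 ± 0.11 (adjusted p = 0.034 and 0.097). The count in M was 7 without replicate 2 or 3.

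In N 13 members rose and 1 fell (20% and 17.4% of all genes, 37.4% in either direction). Ifih1, highest in N in both cultures, was 14.9 ± 4.89 CPM alone and 16.3 ± 2.59 CPM beside fibroblasts (0.13 ± 0.28, adjusted p = 0.76). Bst2 rose from 21.6 ± 2.17 to 41.5 ± 4.09 CPM (0.94 ± 0.19, adjusted p = 0.00015), Ifit3 by 3.19 ± 0.87 (adjusted p = 0.0042), and Oasl2 by 1.86 ± 0.54 (adjusted p = 0.0069). Oas3 fell from 13.8, 15.1, 4.48 and 4.35 to 5.22, 5.81, 2.92 and 1.8 CPM (-1.26 ± 0.40, adjusted p = 0.015), with overlap between the cultures. The count in N was 7 without replicate 3 and 8 without replicate 4.

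A test of the interaction asked whether the response itself differed between lines. It was called for 30 of the 33 members (90.9%), and for 71.3% of all genes. The smallest p-values belonged to Ifih1 (adjusted p = 8e-11), Xaf1 (adjusted p = 1.1e-09), Lgals3bp (adjusted p = 8.8e-09) and Oas3 (adjusted p = 1e-07). Mx1, Sp100 and Rsad2 did not pass (adjusted p = 0.16, 0.16 and 0.17).

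In a further contrast, chosen after the values were seen, the response of each line was set against the mean response of the other 7. H exceeded them for 21 members and fell short for none (5.77% and 7.48% of all genes), and K exceeded them for 15 and fell short for 3 (18.3% and 15.9%). V exceeded them for 6 and fell short for 1 (13.3% and 18.4%). T was below the others for 14 members and E for 12, and above for none (14.2% and 14.2% of all genes were lower). M was below for 12 and above for 1 (11.9% and 14.3%), KPC1 below for 6 and above for 3 (15.7% and 11.9%), and N below for 5 and above for none (3.13% and 3.82%, 6.95% in either direction). These counts depended on single replicates, left out in all lines and cultures at once. The count for K was 10 without replicate 3 and 11 without replicate 1 or 2, against 18 in all. That for M was 5 without replicate 3 or 4, for E 7 without replicate 4, and for T 8 without replicate 3. For V it was 4 without replicate 2, 3 or 4, for KPC1 5 without replicate 1 or 4 and 3 without replicate 2, and for N 2 or 3 without any one.

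No member was called between the metabolic groups. In mono-culture, with clones as replicates (3 against 4), edgeR called 0 of 29 members and 0 of all 14829 genes (0%), and DESeq2 also called 0 members. At an unadjusted p under 0.05 there were 2, Dhx58 (-1.72 ± 0.51, adjusted p = 0.89, group 1 lower) and Xaf1 (-0.97 ± 0.36, adjusted p = 0.89). For a response that differs between the groups, edgeR called 0 of 34 members and 1 of all 15700 genes (0.00637%). Here Usp18 (2.73 ± 0.71, adjusted p = 0.57) and Ifit3 (2.29 ± 0.84, adjusted p = 0.66) had an unadjusted p under 0.05, and DESeq2 called 1 member, Usp18 (adjusted p = 0.0861). These tests compare few clones and do not show that the groups are alike.

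The ligands that start the pathway had almost no reads in the tumor cells. Of 19 interferon genes in the table, 15 had 0 counts in all 64 libraries, among them Ifng, and all 19 together had 15 counts. Ifnb1, a type I interferon that many cells make, had 1 count in the whole series. Over the 64 libraries, 3 counts amount to 0.0030 CPM, a limit of counting error only. Ligand RNA in the fibroblasts themselves was not analysed here.

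The receptors were present in every line. Ifnar1 lay between 103 CPM in KPC1 and 179 CPM in K alone and fell by 0.22 ± 0.07 in the pooled coculture test (adjusted p = 0.031), while Ifnar2 had a log2 fold change of -0.05 ± 0.06 (adjusted p = 0.53). Ifngr1 rose by 0.29 ± 0.06 (adjusted p = 0.0039), and Ifngr2 fell by 0.40 ± 0.14 (adjusted p = 0.037). Of the 16 receptor and JAK-STAT genes, 2 rose and 8 fell, where 27.2% of all genes rose and 27.4% fell. Ptpn2, a phosphatase that acts on Janus kinases, rose by 0.41 ± 0.08 (adjusted p = 0.0036), and Jak1 fell by 0.38 ± 0.10 (adjusted p = 0.014).

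Irf1, a factor best known for the response to interferon gamma, fell in the pooled test by 0.35 ± 0.13 (adjusted p = 0.049) and was called higher in no line, measuring 61.2 CPM alone and 60.8 CPM in coculture in H.

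Other lists of the pathway were read against the same background. Of 18 genes of nucleic acid sensing tested in the pooled response, 6 rose and 6 fell, with Irf5 up by 2.55 ± 0.28 (adjusted p = 0.00045), and Tlr3, the endosomal sensor of double-stranded RNA, down by 0.81 ± 0.18 (adjusted p = 0.0064). Of 48 other ISGs, 11 rose and 10 fell, where 27.2% and 27.4% of all genes did. Trim30a (2.82 ± 0.46, adjusted p = 0.0021) and the chemokines Cxcl10 (2.86 ± 0.51, adjusted p = 0.0027) and Ccl5 (2.88 ± 0.57, adjusted p = 0.0039), which draw T cells, were among those that rose, and Nmi (-0.60 ± 0.12, adjusted p = 0.0044) among those that fell. By line, 27 of the 48 rose and 2 fell in H (21.4% and 22.6% of all genes), and 24 rose and none fell in K (12.5% and 8.02%). In V 18 rose and 22 fell (30% and 31.5%), in E 11 and 24 (32.1% and 29.2%), and in T 8 and 24 (31.5% and 30.7%). In M 9 rose and 11 fell (21.6% and 17.3%), in N 8 and 4 (20% and 17.4%), and in KPC1 11 and 8 (20.1% and 19%).

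Of 16 tested genes of antigen presentation by MHC class I, a list that includes the checkpoint ligand Cd274, 6 rose and 2 fell in the pooled test, where 54.6% of all genes were called in either direction. Nlrc5, the activator of class I genes, rose by 2.09 ± 0.30 (adjusted p = 0.0014), and the peptide transporter Tap1 by 2.17 ± 0.65 (adjusted p = 0.022). The class I heavy chains H2-D1 and H2-K1 rose by 0.66 ± 0.18 and 0.58 ± 0.17 (adjusted p = 0.014 and 0.02). In the same test 15 of 17 fibroblast markers rose and 1 fell, and their part in these results was not tested.

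Within lines, coculture libraries with more fibroblast transcript tended to have more of some members and not of others. After each line's mean was taken from log2 values, the sum of Dcn, Postn, Fap and Thy1 had a Pearson r of 0.85 with Sp100 over the 32 coculture libraries, of 0.65 with Eif2ak2, 0.63 with Ifit3, 0.60 with Ifit1 and 0.59 with Isg15. It was 0.23 for Bst2, 0.05 for Xaf1 and -0.01 for Oas3. Without the H libraries, r was 0.85 for Sp100, 0.59 for Ifit1, 0.05 for Bst2 and -0.20 for Xaf1. The libraries of a line share their line and culture, and these values are descriptions.

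**Figure D5:**
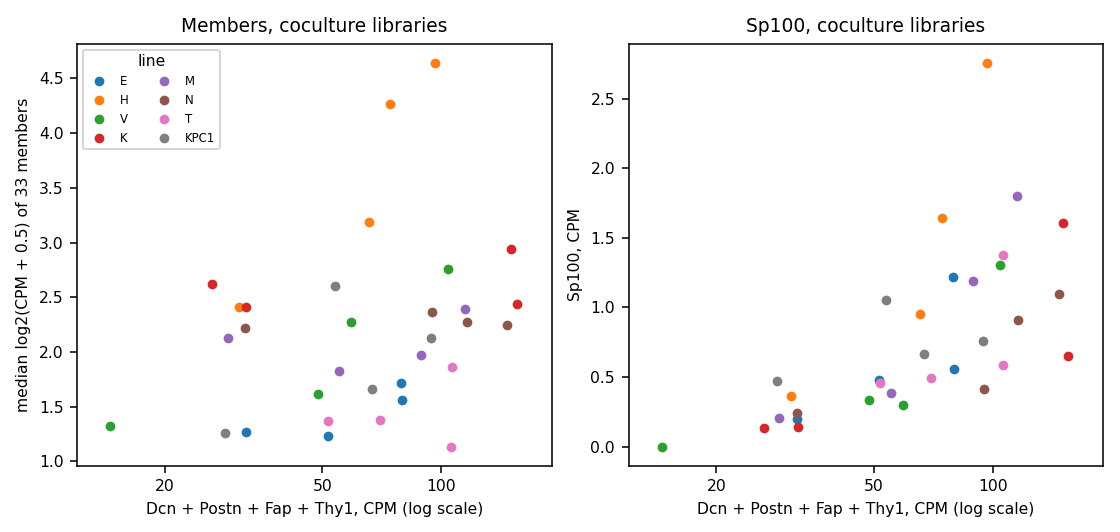
Each point is 1 of the 32 coculture libraries, colored by line; the x axis is the summed CPM of Dcn, Postn, Fap and Thy1 (log scale), and the y axis is the median log2(CPM + 0.5) of the 33 members (left) or the CPM of Sp100 (right). The H libraries have medians of 2.41, 3.18, 4.27 and 4.64, and Sp100 increases with the sum, with an r of 0.85 within lines.

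Sp100 followed the culture almost completely. It had 0 counts in mono-culture in 7 lines, and in coculture its mean lay between 0.485 CPM in V and 1.43 CPM in H. Its V coculture libraries held 0, 0.338, 0.301 and 1.3 CPM. The first of them, the single coculture library without a count of Sp100, also had the lowest sum of the 4 fibroblast genes, 14.6 CPM. The part of fibroblast RNA in the Sp100 result was not tested.

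Likeness among the members was described by the correlation of each member's 8 line responses with the median response of the other members. Ifih1 (r = 0.95), Mx2 (0.93), Gbp3 (0.92) and Irf9 (0.91) were most like that median, while Isg20 (0.12), Ifit1 (0.06), Samd9l (0.02) and Rsad2 (-0.31) were least like it. Ifit1 had 0 mono-culture counts in V, and Rsad2 in E, K, M, N and T, so their responses there are poorly determined. These r values are descriptions over 8 lines, and all members share the same libraries. Several members sit in family clusters, with Ifit1, Ifit2 and Ifit3 on chromosome 19, Oas1a, Oas2 and Oas3 on chromosome 5, and Mx1 and Mx2 on chromosome 16. Families with close copies, such as the Ifit, Oas1 and Gbp genes, could share reads, and 12 members overlap another annotated gene, so their values carry this uncertainty.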

How the data were processed

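PolyA, strand-specific libraries were sequenced as paired 76 base reads. The authors deposited raw counts per gene, and the submitters' processing notes name mm10, featureCounts and edgeR without versions; the strand setting of the counting is not given in the sources used here. The deposited RPKM values, made by the authors, were used for levels between genes and for alternatives. Library totals were 11178721 to 21333683 counts, and intervals and floors cover counting error only.

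The 35 members, the gene lists and the tests were chosen with earlier results of these data known. Groups came from the labels. In R 4.3.3, edgeR 4.0.16 (TMM factors, filterByExpr, quasi-likelihood test, Benjamini-Hochberg adjustment over all genes tested, threshold 0.1) was fitted to 64 libraries with 16 group means for each line's response and mono-culture contrasts. Counts summed by line and culture were fitted for the pooled response (16 sums), the metabolic groups (7 sums) and their difference in response (14 sums). CPM was computed from library totals multiplied by their TMM factors. Named members were, per direction, the called ones with the smallest p-values for responses and the largest changes for mono-culture contrasts, in each line. Some further members were named after their values were seen. Alternatives were limma 3.58.1 on log2(RPKM + 1) and log2(RPKM + 0.1) with a minimum of 0.5 RPKM or none, DESeq2 1.42.0, RLE factors, no count filter, a threshold of 0.05, left-out replicates or lines, a replicate block and, as a factor, whether the library number in the labels was up to 43 or above. On simulated data for 1 line (13549 genes), 73.5% of changes of log2 size 1 and 94.8% of size 2 were recovered. Of the genes called there 8.94% were unchanged, and 11.4% in the simulated pooled test. The simulation changed only 98 and 96 genes of these sizes, while 20.5% (K) to 62.2% (T) of genes were called by line in the data. Recovery in the data can therefore differ. RefSeq promoters were searched for the response element. Some alleles and genes are not reported here.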

Additional observations from a re-analysis of the deposited data

Results flagged for a closer look

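Over the 8 lines, 2 members had 1 response far from the others. The fitted log2 response of Sp100 was 1.88 in N and 5.99 to 7.5 in the other lines, where its mono-culture counts were 0, so that the fitted values depend on the prior count. That of Ifit1 was 9.0 in V, where its mono-culture counts were 0, and 1.04 to 4.65 in the other lines. Of 33 sets of values tested in this way 2 were past the critical value, and 1.65 would be expected by chance at 1 in 20. The response differed between lines for 30 of 33 members by the interaction test, against 71.3% of all genes.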

How the results depend on the processing

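Of 383 alternative values of the 28 counts of called members, 330 stayed within 1.5 times the count given and 53 did not, and the cause was not tested. Where the limma fits on RPKM moved a count by more than that, they called fewer. With a pseudocount of 1 the pooled response had 11 called members (17 in edgeR), E 13, V 13, M 7, N 8 and KPC1 10, and H in mono-culture 12. Without a minimum level M had 6, N 4, KPC1 12 and H in mono-culture 11. The pooled response also had 11 with a pseudocount of 0.1. For the response of a line against the others, limma gave V 3, M 7, N 3 and KPC1 5, without a minimum V 4, M 4, N 1 and KPC1 2, and with a pseudocount of 0.1 M 7 and N 2. In the same contrast, a threshold of 0.05 gave K 11, M 8, N 3 and KPC1 5, and DESeq2 gave N 3. DESeq2 called 1 member for a response that differs between metabolic groups. Leaving out a replicate in all lines and cultures gave coculture responses of 7 to 9 members in M and 7 to 16 in N, and against the other lines 7 to 12 in E, 16 to 22 in H, 4 to 6 in V, 10 to 13 in K, 5 to 9 in M, 2 to 3 in N, 8 to 14 in T and 3 to 11 in KPC1; H in mono-culture had 12 to 14. Reversed by limma were Oas3 in mono-culture M (-0.11), Usp18 in mono-culture M (-0.019, and -0.12 with a pseudocount of 0.1) and Ifih1 in mono-culture KPC1 (-0.025). Of 4271 alternative values for single members 3825 kept direction and call, 439 lost the call and 7 reversed. Depth limits Oas1a, Rsad2, Sp100 and Ifi44, which had the fewest counts of the members tested by line.

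Replicate numbers were not taken to pair the samples, since not every same-numbered pair of a line had a correlation over 0.1. These correlations of deviations ran from -0.11 to 0.44, over 0.1 in 22 of 32. Their mean was 0.19, against 0.09 for the same number in other groups and -0.03 for other numbers. The values do not show that same-numbered replicates are independent. With a replicate block the counts for the coculture response were E 22, H 31, V 23, K 22, M 11, N 15, T 24 and KPC1 20. The block fitted over libraries gave 27 called members for the pooled response (24 higher, 3 lower), 7 between metabolic groups and 11 for their difference in response, where libraries of a clone count as replicates.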
